A study of Mus musculus with 20 samples.

Results

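Mouse T-lineage acute lymphoblastic leukemias with active NOTCH signalling were compared by the transcript level of chromosome 14. The leukemias were chosen by measured values. Of 10 leukemias in the table, 6 had a mean of over 10 FPKM (fragments scaled by exon length and library total) of Dtx1, a ubiquitin ligase and NOTCH target, and these were split by the median shift of chromosome 14 genes. A shift is the log2(FPKM + 1) level of a gene in a leukemia minus the mean of that gene over 9 leukemias. Leukemias 20M, 2M and 78A had a median shift above 0.2 and are called raised, and 73A, 73M and JW81 had a median shift below 0 and are called not raised. They account for 12 of the 20 libraries, 2 per leukemia. Chromosome 14 held 1657 of the 39017 genes in the table, and 417 of these averaged at least 1 FPKM over 18 libraries and were examined, beside 10922 such genes on other chromosomes.

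NOTCH1 is a receptor that is cleaved on contact with its ligand, so that its intracellular part moves to the nucleus and switches on targets such as Dtx1, Hes1, Ptcra and Myc. Activating Notch1 mutations are among the most frequent lesions of T-cell acute lymphoblastic leukemia in mouse and human. Whole-chromosome gains are also common in mouse T-cell tumors, and an extra copy is known to raise the transcripts of most genes on that chromosome roughly in step with the copy number. A gene with 3 copies in place of 2 has 1.5 times the template. Mouse chromosome 14 carries the T-cell receptor alpha and delta locus, the tumor suppressor genes Rb1 and Bap1 and several proteasome genes.

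All leukemias arose in C57Bl/6 x 129Sv/Jae F1 mice injected as pups with MOL4070LTR, a retrovirus that causes leukemia by inserting next to host genes. The sample labels give no genotype that tells the leukemias apart. Each leukemia was one primary tumor transplanted into recipient mice, and RNA came from whole recipient bone marrow, so host cells were part of every library. The table names the 2 libraries of a leukemia VEH and DEX, letters that neither the labels nor the study's methods explain, and both were used as libraries of the same leukemia. Since both share a tumor, the leukemia and not the library is the unit of every comparison (n = 3 against n = 3).

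The 12 libraries held 12575231 to 201222288 counts. Among them, nuclear ribosomal RNA genes exceeded 1 CPM (counts scaled to the library total) only in the DEX libraries of 20M (21.6), 73M (61.0) and JW81 (47.5). Of the T-lineage markers, Lck, the kinase that starts T-cell receptor signalling, was at 188 to 284 FPKM and Cd3e at 21.6 to 33.4 FPKM in the 6 leukemias, while the coreceptor Cd8a was at 0.323 FPKM in JW81 and 35.7 to 168 FPKM in the others. Of 9 B-lineage markers, 1 passed the filter. Xist, the RNA of the inactive X chromosome, was at 76.1 to 318 FPKM in the 6 raised libraries and was at 80.5 to 277 FPKM in those of 73A and JW81. 73M stood apart with 0.0784 and 0.0879 FPKM of Xist and 23.0 and 30.4 FPKM of the Y-linked gene Ddx3y. Sex-linked expression therefore moved with 1 of the 3 leukemias not raised, and its part in the results below was not tested. DNA copy number was not analysed here.

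The rule itself used the Dtx1 level and the chromosome 14 shift, and both are given as a description. Dtx1 was at 109, 90.03 and 119 FPKM in 20M, 2M and 78A and at 55.9, 109.6 and 42.9 FPKM in 73A, 73M and JW81. The next lower value was 0.283 FPKM in 4638, so no leukemia lay near the limit of 10 FPKM. The median chromosome 14 shift was 0.33 in 20M, 0.29 in 2M and 0.29 in 78A, and was -0.03 in 73A, -0.13 in 73M and -0.22 in JW81. On the 2 sides of the rule the nearest leukemias were 78A and 73A. The 3 leukemias with low Dtx1 among the 9, namely 5C, 8633 and JW14, had shifts of -0.15, -0.26 and -0.26, and 4638, which did not enter the gene means, had -0.27.

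The raised level was present in both libraries of each leukemia. Chromosome 14 genes took 4.25% and 4.01% of the counts in the VEH and DEX libraries of 20M, 4.34% and 4.30% in those of 2M, and 4.24% and 4.08% in those of 78A. The shares were 3.19% and 3.10% in 73A, 2.89% and 2.80% in 73M, and 3.13% and 3.02% in JW81. The lowest of the 6 raised libraries thus lay above the highest of all 14 others, which reached 3.19%. Of the 417 genes, 336, 335 and 357 were above their mean over 9 leukemias in 20M, 2M and 78A. In 73A, 73M and JW81, 195, 141 and 96 genes were.

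**Figure D1:**
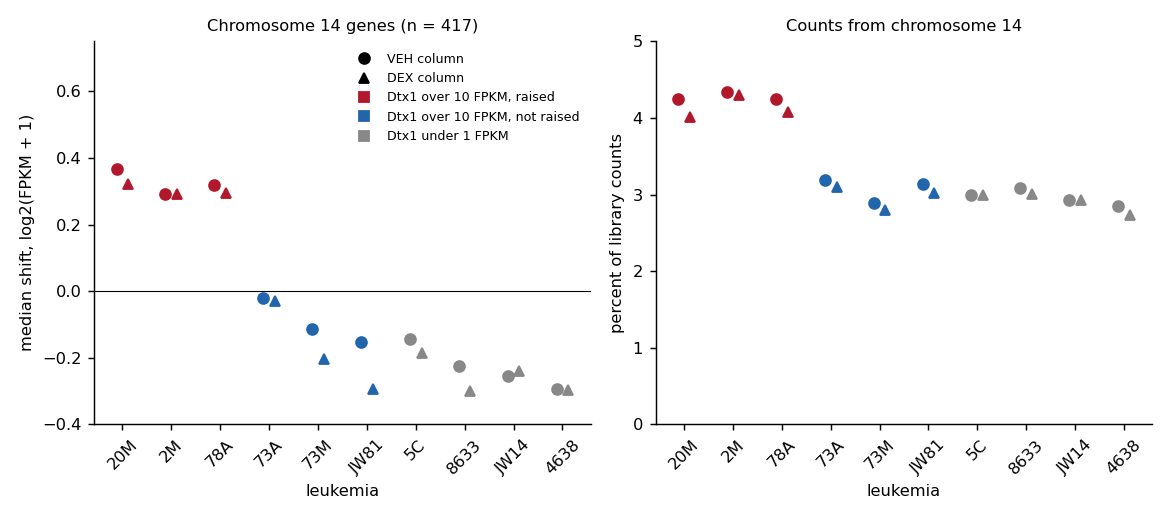
Left, median shift of 417 chromosome 14 genes from their 9-leukemia means on the log2(FPKM + 1) scale; right, percent of a library's counts from chromosome 14; circles are VEH and triangles DEX libraries, red the 3 raised leukemias, blue the 3 not raised, grey those with Dtx1 under 1 FPKM. The 6 red points lie between 4.01% and 4.34% of counts and the 14 others between 2.74% and 3.19%.

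Gene by gene, the difference was broad. Between the means of the 3 raised and the 3 other leukemias, the median difference of the 417 genes was 0.45 on the log2(FPKM + 1) scale, with quartiles of 0.31 and 0.60. The ratio of mean FPKM had a median of 1.43 and quartiles of 1.28 and 1.61. The mean level was higher in the raised leukemias in 371 genes (89.0%), and 62.1% of genes had a ratio between 1.25 and 1.75. In 209 of 417 genes (50.1%) every raised leukemia lay above every other one, and in 3 genes every raised leukemia lay below. Here and in every later count, overlap was judged on the mean log2(FPKM + 1) level of a leukemia, and the FPKM printed for a leukemia is the mean of its 2 libraries. Off chromosome 14 the groups separated in this way in 4.05% of genes upward and 4.34% downward, and the median ratio was 0.984. The chromosome 14 counts were set by the choice of leukemias and are a description of size.

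Each raised leukemia was set against each of the others in turn. The median difference of chromosome 14 genes in these 9 pairs ran from 0.30 (2M against 73A) to 0.55 (20M against JW81), while the median of all other genes ran from -0.08 to 0.06. Pairs inside the raised group differed by at most 0.06, and pairs inside the other group by up to 0.20. The 3 raised leukemias were therefore closer to each other than 73A, 73M and JW81 were, with 73A the highest of the latter.

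**Figure D2:**
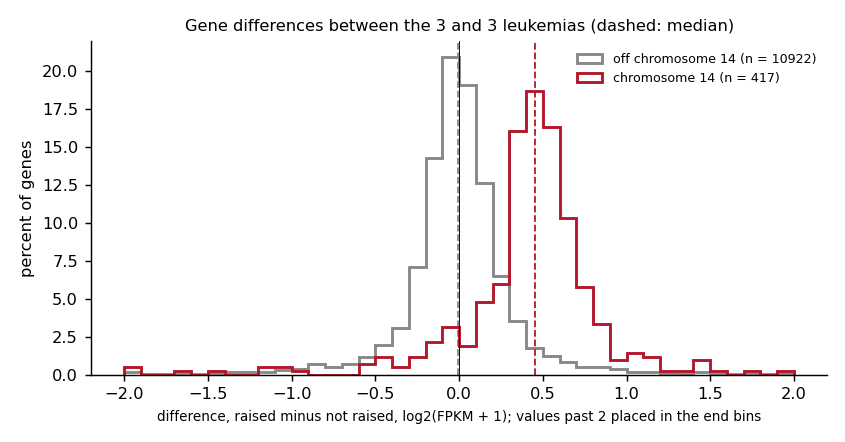
Percent of genes (vertical axis) by difference between raised and not raised leukemias on the log2(FPKM + 1) scale (horizontal axis), for 417 genes of chromosome 14 (red) and 10922 genes elsewhere (grey), with dashed medians. The red median is 0.45 and the grey median -0.01.

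Along the chromosome, the raised level ran from one end to the other. When the 417 genes were taken in gene order in 10 sets of 41 or 42, the lowest raised leukemia lay above the highest other leukemia in all 10. The median difference was lowest in set 1 (0.35, ratio 1.33) and highest in set 5 (0.58, ratio 1.68), which holds 21 receptor gene segments. Shifts of 20M ran from 0.14 to 0.46 over the sets, those of 2M from 0.12 to 0.46 and those of 78A from 0.16 to 0.47. Among the others, 73A ran from -0.37 in set 5 to 0.12 in set 2, 73M from -0.20 to 0.00 and JW81 from -0.32 to -0.11. No set of a raised leukemia reached 0 or below.

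**Figure D3:**
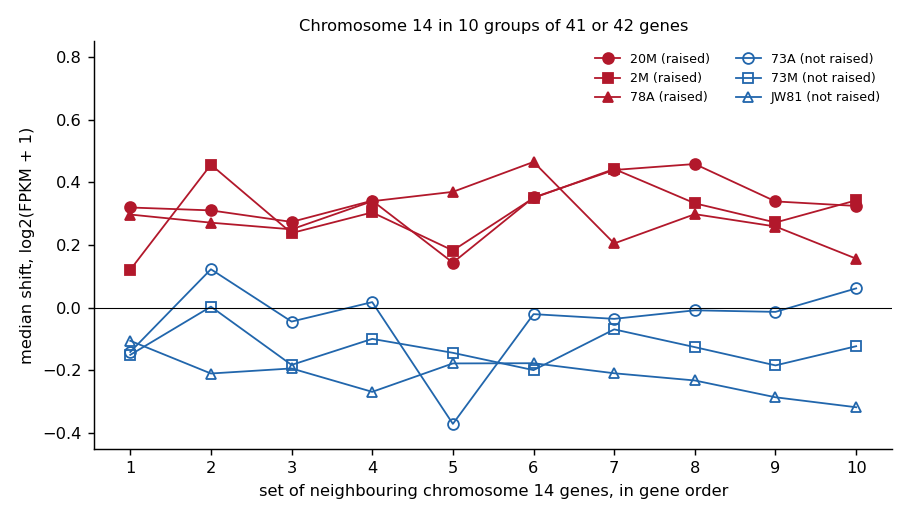
Median shift on the log2(FPKM + 1) scale (vertical axis) in 10 sets of neighbouring chromosome 14 genes in gene order (horizontal axis), one line per leukemia, filled red for raised and open blue for not raised. The red lines stay between 0.12 and 0.47 and the blue lines between -0.37 and 0.12.

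Highly expressed genes varied less around the common ratio than weakly expressed ones. Receptor segments left out, the 132 genes with the lowest mean FPKM (0.244 to 4.76) had a median difference of 0.36 and a median ratio of 1.38. The 132 genes in the middle had 0.49 and 1.45, and the 132 from 13.7 FPKM upward had 0.49 and 1.42. The gap of 0.13 between the outer classes was 0.0378 with a pseudocount of 0.1 and 0.235 without 20M. Ratios between 1.25 and 1.75 made up 49.2%, 70.5% and 75.8% of these 3 classes. The 132 genes that varied least among the 3 leukemias with low Dtx1 had ratios in that band in 74.2% of cases, against 47.7% for the 132 that varied most, with median ratios of 1.43 and 1.47. Protein-coding genes (352) and other transcripts outside the receptor locus (44) had median ratios of 1.43 and 1.44.

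Among the 255 genes with at least 5 FPKM that were not receptor segments, 188 had a ratio between 1.25 and 1.75, 29 between 1 and 1.25, 28 above 1.75 and 10 below 1. Genes nearest to the median difference show the typical size. Pdhb, a subunit of the pyruvate dehydrogenase that feeds the citric acid cycle, was at 19.5, 23.0 and 23.6 FPKM in 20M, 2M and 78A and at 16.8, 14.8 and 15.9 FPKM in 73A, 73M and JW81, a ratio of 1.39 (group means ± SD of 22.0 ± 2.19 and 15.8 ± 0.967, n = 3 each). The leukemias are given in this order throughout. Gnpnat1, an enzyme of hexosamine synthesis, was at 6.46, 5.62 and 5.71 FPKM against 5.33, 3.51 and 3.68. In both genes the groups did not overlap, and 73A was the nearest to the raised leukemias.

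The lists of chromosome 14 genes by role are read against the whole chromosome, on which 89.0% of genes were higher and 50.1% separated upward. Of the genes of chromatin and tumor suppression, all 11 listed were higher on average, 7 without overlap, with a median ratio of 1.49. Supt16, on the minus strand at chr14:52160414-52197416 (GRCm38), encodes the large subunit of the histone chaperone FACT and was among the 8 most highly expressed genes of the chromosome. It was at 123, 113 and 130.4 FPKM against 101, 76.4 and 69.0, a ratio of 1.49. Its neighbour Chd8 (chr14:52198151-52257780, minus strand), a chromatin remodeller, was at 24.4, 23.6 and 21.1 FPKM against 17.4, 16.2 and 12.2, a ratio of 1.51. Both neighbours thus showed nearly the same ratio at different levels per length, with raised means of 122 and 23.1 FPKM.

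The promoters of these neighbours are shown beside that of Gng2, a gene with a ratio of 2.92 described further on, to set genes with the common ratio next to one far above it. Each is 300 bases from RefSeq (GRCm38.p6), 250 before and 50 after the RefSeq start, 5′ to 3′ on the gene's strand, which is minus for all 3. The gene positions printed above come from another annotation. Parts of the Supt16 and Chd8 windows before the RefSeq start lie inside those positions. Capitals mark CCGGAAG or, for the opposite strand, CTTCCGG, the core bound by ETS-family factors, which was searched on both strands. The positions are chr14:52197190-52197489 for Supt16, chr14:52257711-52258010 for Chd8 and chr14:19976644-19976943 for Gng2.
Supt16: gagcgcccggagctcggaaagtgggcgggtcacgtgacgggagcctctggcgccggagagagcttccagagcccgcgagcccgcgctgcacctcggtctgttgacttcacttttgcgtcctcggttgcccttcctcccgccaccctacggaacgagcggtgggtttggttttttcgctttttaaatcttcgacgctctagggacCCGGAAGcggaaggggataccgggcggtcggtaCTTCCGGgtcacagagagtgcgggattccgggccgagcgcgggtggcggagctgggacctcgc
Chd8: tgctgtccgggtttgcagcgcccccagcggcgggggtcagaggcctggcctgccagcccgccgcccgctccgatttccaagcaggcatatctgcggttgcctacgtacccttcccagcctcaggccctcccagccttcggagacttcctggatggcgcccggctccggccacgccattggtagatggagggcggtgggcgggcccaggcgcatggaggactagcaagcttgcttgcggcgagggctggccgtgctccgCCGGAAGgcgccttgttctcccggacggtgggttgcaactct
Gng2: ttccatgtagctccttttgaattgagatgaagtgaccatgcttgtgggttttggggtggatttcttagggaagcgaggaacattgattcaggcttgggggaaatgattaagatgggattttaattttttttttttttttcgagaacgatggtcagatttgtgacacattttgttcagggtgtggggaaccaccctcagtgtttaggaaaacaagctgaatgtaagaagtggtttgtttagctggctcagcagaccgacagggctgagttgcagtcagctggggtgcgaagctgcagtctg
Supt16 held 2 matches, Chd8 held 1 and Gng2 held 0. The motif was present in 9.93% of 27025 genes with a RefSeq promoter and in 8.24% of 1092 such genes on chromosome 14. CpG dinucleotides numbered 35, 26 and 5 in the 3 windows, against a median of 7 over all promoters. The match is a description of the letters in these windows. Whether the motif or the CpG number goes with the ratio was not tested.

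Bap1, a histone H2A deubiquitinase and tumor suppressor, was at 24.1, 23.5 and 28.2 FPKM against 17.6, 17.8 and 17.7, a ratio of 1.43. Pbrm1, the bromodomain subunit of the PBAF remodelling complex, was at 73.4, 63.0 and 60.9 FPKM against 49.3, 42.03 and 36.9. Wapl, which releases cohesin from DNA, was at 90.3, 77.9 and 74.2 FPKM against 54.4, 55.9 and 52.6. In none of these 3 genes did the groups overlap, and Bap1 was nearly equal in the 3 leukemias that were not raised (SD 0.0955). Top2b, a DNA topoisomerase, had the highest ratio of the list (1.70), with 93.9 FPKM in 20M, and Prmt5, an arginine methyltransferase, had 1.56. Rb1, the retinoblastoma cell-cycle inhibitor, had the lowest ratio at 1.20 and overlapped, with 23.3, 18.6 and 16.5 FPKM against 17.5, 17.7 and 13.6.

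**Figure D4:**
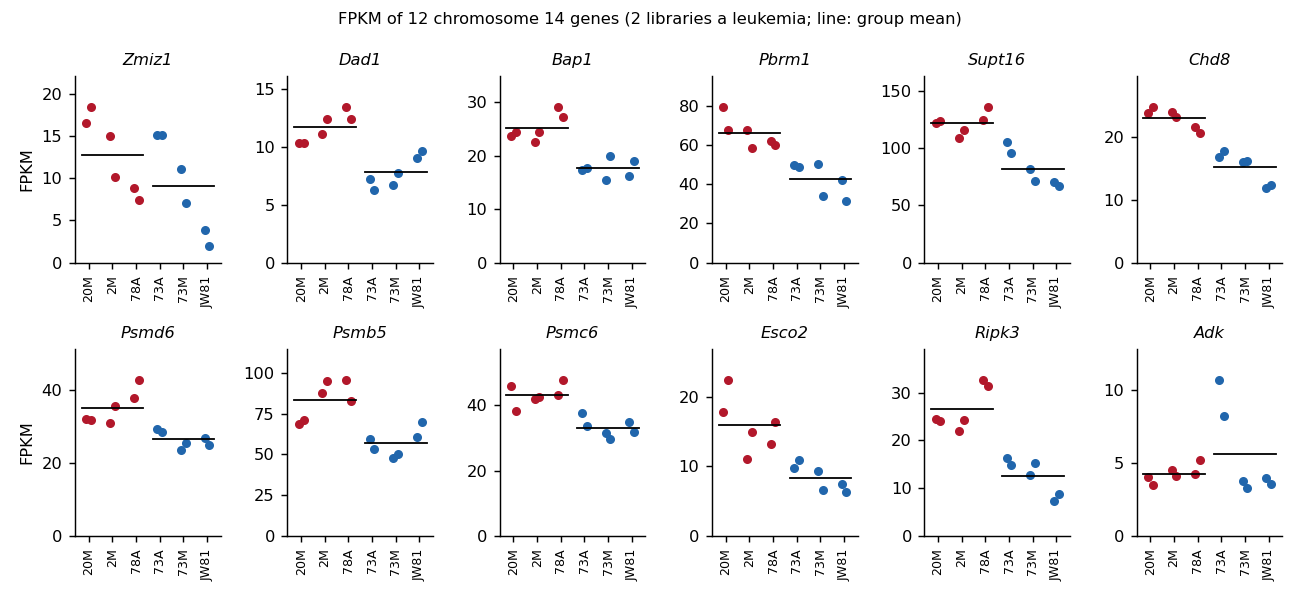
FPKM (vertical axis, from 0) of 12 chromosome 14 genes in the 2 libraries of each leukemia, red for raised and blue for not raised, with black lines at the group means. Ripk3 has the highest ratio of the 12 (2.11), Zmiz1 overlaps, and Adk is the one with a lower mean in the raised leukemias, through 73A.

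Of the NOTCH and T-cell genes of chromosome 14, 4 of 4 tested were higher and 2 did not overlap (89.0% and 50.1% over the chromosome). Zmiz1, a cofactor that binds NOTCH1 on chromatin, had a ratio of 1.41 but spread over 17.5, 12.6 and 8.13 FPKM against 15.1, 9.06 and 2.90, so the groups overlapped. Elf1, an ETS factor of lymphoid cells, was at 58.9, 56.6 and 48.0 FPKM against 35.9, 33.3 and 34.5 (ratio 1.58). Dad1, an oligosaccharyltransferase subunit whose gene lies just past the receptor locus, was at 10.3, 11.8 and 13.0 FPKM against 6.78, 7.26 and 9.34 (ratio 1.50). Elf1 and Dad1 did not overlap. Of the 7 listed genes, Trdc, Nfatc4 and Klf12 did not pass the filter.

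The T-cell receptor alpha and delta locus was an exception within the chromosome. Trac, the alpha constant region at chr14:54220521-54224206, was at 31.6, 26.9 and 32.6 FPKM in the raised leukemias, but at 1.21, 14.3 and 29.9 FPKM in 73A, 73M and JW81. JW81 was thus level with the raised group, and 73A was far below every other leukemia. The 21 variable segments that passed the filter had ratio quartiles of 0.729 and 4.90, against 1.28 and 1.59 for the other 396 genes, and only 2 of them (9.52%) separated the groups upward. JW81 carried 163 FPKM of the delta segment Trdv1 and 22.5 FPKM of Trdv2-2, while Trdv1 did not reach 1 FPKM in the other 5 leukemias. The highest segment was Trav5d-4 in 20M, Trav6d-5 in 2M, Trav8-2 in 78A, Trav17 in 73A and Trav21-dv12 in 73M, at 20.3, 10.5, 12.1, 3.72 and 5.53 FPKM. Trav5d-4 had the same value as its near-identical copy Trav5n-4 in 20M, so the copies cannot be told apart. Without the segments, the median difference of the chromosome was 0.45.

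Signalling genes had the lowest median ratio of the larger lists (1.31, 14 tested, 12 higher, 6 without overlap). Arhgef3, a guanine nucleotide exchange factor, was at 48.3, 47.9 and 47.2 FPKM against 35.8, 30.4 and 16.5. Dock9, an activator of the GTPase Cdc42, was at 5.12, 7.43 and 5.03 FPKM against 2.52, 2.23 and 0.756, with a ratio of 3.19. The stress kinase gene Mapk8 had a ratio of 1.29 and did not overlap. Prkcd, a protein kinase C, did not overlap either but differed little, with 12.7, 12.6 and 12.4 FPKM against 11.8, 10.1 and 12.3 (ratio 1.10). The calcineurin subunits Ppp3cb and Ppp3cc had ratios of 1.34 and 1.43 and both overlapped, 78A being level with the other leukemias. Tbc1d4, a regulator of glucose transporter traffic, and Rap2a, a small GTPase, were lower on average and varied several-fold inside both groups.

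Proteasome and protein-handling genes were higher in 12 of 12 tested, 9 of them without overlap (89.0% and 50.1% over the chromosome), with ratios from 1.26 to 1.59. Psmb5, the catalytic subunit that bortezomib inhibits, was at 69.9, 91.4 and 89.3 FPKM against 56.4, 49.0 and 65.4 (ratio 1.47). Psmd6 and Psmc6 of the regulatory particle had ratios of 1.33 and 1.31. The interferon-inducible activator subunits Psme1 and Psme2, which neighbour each other, had 1.41 and 1.33, and Psme2 overlapped because 20M (51.3 FPKM) lay below 73A (51.6 FPKM) and JW81 (53.8 FPKM). Dnajc3, a chaperone of the endoplasmic reticulum, was at 62.9, 54.0 and 56.7 FPKM against 42.7, 40.8 and 27.6 (ratio 1.56).

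Cell-division genes had a median ratio of 1.54, with 12 of 12 higher and 8 without overlap (again 89.0% and 50.1% over the chromosome). Esco2, which acetylates cohesin in S phase, had the highest at 1.91, with 20.1, 13.1 and 14.8 FPKM against 10.3, 7.94 and 6.90. Pbk, a mitotic kinase, was at 67.1, 60.2 and 69.8 FPKM against 58.2, 38.8 and 31.0. Bora, the activator of Aurora A, had a ratio of 1.61, Haus4 of the spindle augmin complex 1.68 and Wdhd1, a replication factor, 1.54. For Pbk and Bora, 73A was close to the raised leukemias and JW81 was lowest. The mitosis and DNA replication lists on all chromosomes are given below for scale.

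Of the death genes, Ripk3, the kinase of necroptosis, was at 24.3, 23.1 and 32.1 FPKM against 15.6, 13.95 and 8.05, a ratio of 2.11. Bnip3l, a receptor for mitophagy, was at 44.3, 39.0 and 34.6 FPKM against 31.0, 29.3 and 26.8 (1.35). Gzmb and Gzmc did not pass the filter. In metabolism, Ghitm had a ratio of 1.40 without overlap and Tkt of the pentose phosphate pathway 1.31 with overlap. Adk, adenosine kinase, was lower on average through 73A alone (9.47 FPKM, against 3.53 to 4.73 FPKM in the other 5). Over all 7 lists, 61 of 69 genes were tested, 58 were higher, 37 separated the groups upward and the median ratio was 1.42, next to 1.43 for the whole chromosome.

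The genes furthest from the common ratio differed in pattern. Colq, the collagen tail of acetylcholinesterase, had the largest difference (1.77), at 79.4, 64.0 and 87.9 FPKM against 26.0, 36.5 and 10.8. Gng2, a G-protein gamma subunit, was at 26.1, 14.3 and 22.5 FPKM against 7.89, 9.23 and 4.39. Dzip1, a ciliary protein, and Thtpa, a thiamine triphosphatase, had ratios of 2.45 and 2.39. All 4 separated the groups. At the other end, Scara3, a scavenger receptor, was at 38.5 and 33.2 FPKM in 73A and 73M, at 10.04 FPKM in 78A and at 0.112 to 0.174 FPKM in 20M, 2M and JW81, so that it followed neither group. Gm21738 had a lower mean on the log scale (difference -0.33) but a ratio of 1.29, since 2M reached 96.2 FPKM. The 3 genes with every raised leukemia below were Wdfy4, Gm6055 and Tsc22d1, and each was under 1.5 FPKM in the raised leukemias and highest in JW81.

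Among the most abundant transcripts the ratios were mixed. Rpph1, the RNA of ribonuclease P, was at 13132, 19823 and 18959 FPKM against 12376, 10275 and 15168, and Tpt1, a translationally controlled protein, at 1006, 890.2 and 1001 FPKM against 576, 634 and 931. Rps24, a ribosomal protein, was at 253, 233 and 281 FPKM against 168, 168 and 254. All 3 overlapped through JW81. Itm2b, a membrane protein, did not overlap and had a ratio of 1.49. Rps3a2, a processed pseudogene that can share reads with its parent gene elsewhere, was at 1663 FPKM in JW81 and 478 to 567 FPKM in the other 5. Zfp488 and Gm21750 had ratios of 0.912 and 0.927 and nearly the same profile, with the lowest values of both in 78A and JW81.

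Genes elsewhere whose products work with those of chromosome 14 are set beside all 9863 genes off chromosomes 1, 14 and 15, whose median ratio was 0.972. Members on chromosome 14 are set beside its 417 genes, with a median ratio of 1.43 and 50.1% separated upward, values set by the choice of leukemias. Subunits of the proteasome core and regulatory particle encoded off chromosomes 1, 14 and 15 had a median ratio of 0.950 (29 genes, 0 separated upward), and Psmb5, Psmc6 and Psmd6 had 1.33 (3 of 3 separated). Mitochondrial ribosomal proteins had 0.950 for 67 genes elsewhere (1 separated upward) and 1.36 for Mrpl52, Mrpl57 and Mrps16 (1 of 3). Cytosolic ribosomal proteins had 0.851 for 69 genes elsewhere (0 separated upward) and 1.21 for Rpl15 and Rps24 (0 of 2). Downward separation was not counted in these families of subunits. In a set of complexes such as FACT, PBAF and calcineurin, 13 members on chromosome 14 had a median ratio of 1.43, and 9 of them separated upward. The 22 members elsewhere, with Arid2 on chromosome 15, had 0.991, and 0 of them separated upward and 1 downward. Upward and downward shares were 3.85% and 4.61% of all genes off chromosomes 1, 14 and 15. Off chromosome 14 alone they were 4.05% and 4.34%. Smarca4, the ATPase partner of Pbrm1, was at 43.6, 47.5 and 44.6 FPKM against 50.8, 51.8 and 48.5, lower in each raised leukemia (edgeR quasi-likelihood log2 fold change -0.17, SE 0.11, adjusted p = 0.988).

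With all 6 leukemias and all 12 libraries, no other chromosome separated the groups, but chromosome 5 did with TMM scaling, chromosome 11 did without the libraries with ribosomal RNA counts, and 1 to 3 chromosomes did without 20M, 2M, 73A or JW81. Over 19 chromosomes, the difference in median shift ran from -0.05 to 0.17, and the smallest two-sided exact permutation p over 20 regroupings was 0.3 (0.76 after Benjamini-Hochberg adjustment over 19 chromosomes), where 0.1 is the smallest p that 3 against 3 allows. Chromosome 15 had the largest difference, with shifts of -0.24, 0.16 and 0.24 in 20M, 2M and 78A and -0.17, 0.08 and -0.28 in 73A, 73M and JW81. Without 20M, its groups no longer overlapped. On chromosome 1, 2M had a shift of 0.34 and the 5 others lay between -0.11 and 0.04. Without 2M, the median gene difference of chromosome 1 went from 0.12 to -0.01. The median gene ratios were 1.15 on chromosome 15 and 1.10 on chromosome 1. On the other 17 chromosomes, every shift of the 6 leukemias lay between -0.11 and 0.15.

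**Figure D5:**
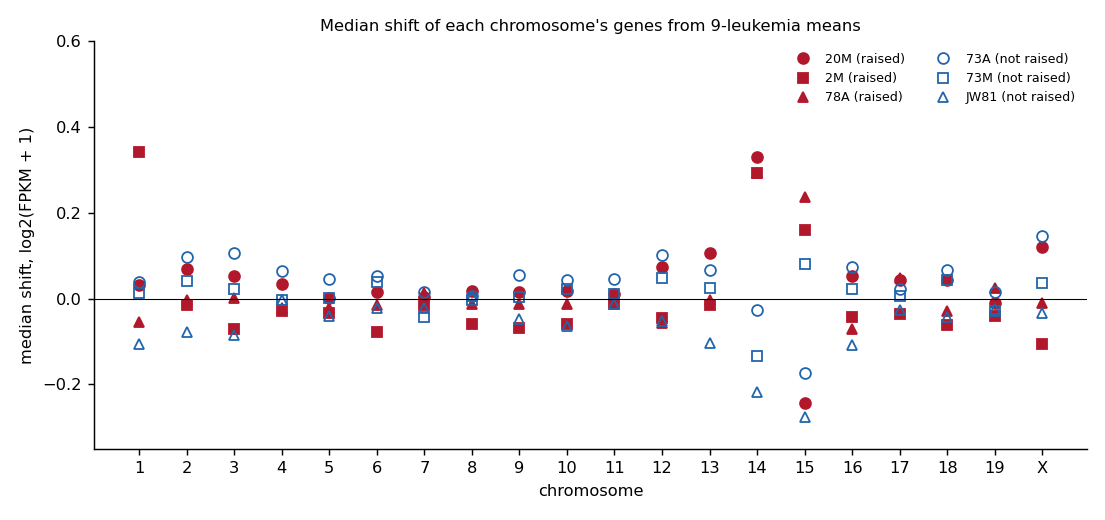
Median shift of each chromosome's genes from the 9-leukemia means on the log2(FPKM + 1) scale, one point per leukemia, filled red for raised and open blue for not raised. The colors separate on chromosome 14 alone; 2M stands at 0.34 on chromosome 1, and chromosome 15 spreads from -0.28 to 0.24 with mixed colors.

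Genes elsewhere were tested with edgeR's quasi-likelihood test on counts summed per leukemia, 3 against 3, with p-values adjusted over all 11339 genes. Of 10922 genes off chromosome 14, 0 passed an adjusted p of 0.05 in either direction (0% higher, 0% lower), and the smallest adjusted p was 0.538. At an unadjusted p under 0.05, 217 genes (1.99%) were higher and 297 (2.72%) lower in the raised leukemias. DESeq2 called 53 higher (0.485%) and 50 lower (0.458%), limma voom on the 12 libraries with the leukemia as a random block called 5 higher (0.0458%) and 1 lower (0.00916%), and limma on log2(FPKM + 1) called 0. The 6 genes of limma voom, chosen after their values were seen, were Gdf11, Atp11a, Malt1, Igsf23 and Kcnk6, higher, and Gria3, lower.

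In these genes the 3 raised leukemias stood on one side of the other 3. Gria3, a glutamate receptor subunit, was at 1.59, 1.17 and 1.22 FPKM against 5.69, 6.99 and 8.69 (edgeR log2 fold change -2.49, SE 0.28, adjusted p = 0.538; voom adjusted p = 0.0228). Igsf23, an immunoglobulin superfamily member, was at 28.9, 35.03 and 31.3 FPKM against 10.6, 15.1 and 6.02 (edgeR log2 fold change 1.62, SE 0.32, adjusted p = 0.538). Malt1, the paracaspase of NF-kB signalling downstream of antigen receptors, was at 3.88, 3.43 and 2.93 FPKM against 1.53, 1.80 and 1.08 (log2 fold change 1.25, SE 0.19, edgeR adjusted p = 0.538). Gdf11, a growth factor of the TGF-beta family, was at 4.89, 5.56 and 3.90 FPKM against 1.46, 1.81 and 1.56. None of these 4 passed edgeR, and all 4 passed DESeq2. Atp11a and Kcnk6 are outside this count.

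NOTCH targets other than the gene of the rule did not pass the test. Of 10 listed, Nrarp, a feedback inhibitor of NOTCH, was the one with all raised leukemias above the others, at 5.39, 3.85 and 8.18 FPKM against 1.65, 1.89 and 0.246 (edgeR log2 fold change 2.17, SE 0.76, adjusted p = 0.733). Myc was the one with all below on the log2(FPKM + 1) scale, but its mean FPKM overlapped, at 29.8, 37.2 and 30.9 against 40.6, 34.5 and 38.3 (adjusted p = 0.972 with edgeR). Of all genes off chromosome 14, 4.05% lay above and 4.34% below in this way. Hes1 was highest in JW81 (85.8 FPKM) and otherwise between 12.1 and 28.5 FPKM. Notch1 itself was at 126, 94.6 and 102 FPKM against 99.0, 111 and 57.7. JW81 was the lowest of the 6 for Notch1, Dtx1 and Nrarp and the highest for Hes1. Since Dtx1 chose the leukemias, the list is not independent of the rule.

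Lists on the other chromosomes are given by counts and by the median edgeR log2 fold change, which was -0.03 over all genes off chromosome 14, and 0 of their members passed the edgeR test. With DESeq2, Hsp90b1, Hspa1b and the erythroid genes Slc4a1 and Hbb-bt passed. The T-lineage list (12 tested) had a median of 0.45 and its mean level per leukemia was 5.77, 5.66 and 5.67 against 4.82, 5.39 and 4.81 on the log2(FPKM + 1) scale, without overlap. With DEX libraries alone the median fell to 0.18. Of its genes, 1 separated upward (Thy1) and 0 downward, and Cd3d, Cd3g, Cd3e and Cd7 had log2 fold changes of -0.003, -0.02, -0.21 and -1.02. Thy1, a surface marker of T cells, was at 296, 233 and 351 FPKM against 225.1, 193.03 and 227, and Cd4, the helper coreceptor, was at 43.5, 18.2 and 104 FPKM against 4.07, 22.6 and 1.52. Zap70 and Ptprc, both of T-cell receptor signalling and both on chromosome 1, were the 2 of 12 genes of that list with the raised leukemias above (4.05% of all genes off chromosome 14 separated upward and 4.34% downward). The mitosis and DNA replication lists had medians of 0.04 and 0.04, with 0 of 24 genes separated in either direction.

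Unfolded protein and ATF4 genes had a median of -0.56 over 10 tested, with Hsp90b1, Pdia6 and Herpud1 below in each raised leukemia and 5 genes lower at an unadjusted p under 0.05, against 4.34% and 2.72% of all genes off chromosome 14. Hsp90b1, the major chaperone of the endoplasmic reticulum, was at 84.4, 89.0 and 78.9 FPKM against 148, 106 and 119.5 (edgeR log2 fold change -0.67, SE 0.12, adjusted p = 0.538; DESeq2 adjusted p = 7.3e-06). Dnajc3 of the same compartment, on chromosome 14, stood in the opposite direction, as given above. Of 11 heat-shock genes, Hspa1b alone separated, at 0.117 to 0.301 FPKM against 1.06 to 1.35. The p53 target, autophagy and interferon lists (10, 6 and 5 genes tested) had medians of -0.06, -0.04 and -0.16, and 0 of the tested genes separated. The last 2 of these turned to 0.07 and 0.08 without JW81, the interferon median was also 0.08 with limma voom, and the p53 median was -0.23 without 73M.

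Of the marker lists of other marrow cells, only that of macrophages separated the groups. In it, 4 of 6 genes tested (C1qa, C1qb, C1qc and Cd5l) were lower in each raised leukemia, against 4.34% of all genes off chromosome 14, C1qa at 1.49, 2.23 and 2.95 FPKM against 3.60, 5.03 and 3.66, and the mean level of the list was 1.14 to 1.62 against 1.69 to 2.24. The erythroid list overlapped and was high in 73M and 73A, with Hba-a1, a hemoglobin chain, at 98.0 and 28.9 FPKM and at 0.574 to 6.09 FPKM in the other 4. Neutrophil and monocyte genes overlapped too, with a median log2 fold change of -0.74, and 73A had the highest mean level of the list (5.75, against 3.88 to 4.67 in the other 5). The B-lineage list was also highest in 73A and 73M, with a mean level of 0.612 and 1.07 against 0.177 to 0.205 in the other 4, and Cd79b, a B-cell receptor subunit, was at 2.72 and 7.99 FPKM against 0.433 to 0.652 FPKM. In whole marrow, fewer cells of a type and less RNA per cell cannot be told apart. The part of host cells in the differences off and on chromosome 14 was not tested, and JW81, with the lowest level of the neutrophil and monocyte list, also had the lowest chromosome 14 shift of the 6.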

How the data were processed

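Total RNA from bone marrow of mice transplanted with leukemias was selected for poly(A), and libraries were made with the Illumina TruSeq kit. Per the labels and the study's methods, the authors aligned reads with Bowtie 2 to mm10 and quantified them with RSEM. The deposited table holds expected counts (estimated counts that need not be whole) for 39017 genes in 20 libraries. Of its columns, 17 matched a sample title, and 3 showed the leukemia only. Members and gene lists were chosen with earlier results of these data known.

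FPKM were computed here from the deposited expected counts, each library's total and merged exon lengths of GENCODE release M21 (GRCm38), which also gave positions. Levels are means over both libraries of log2(FPKM + 1), where the pseudocount of 1 shrinks differences of weakly expressed genes, and genes averaging at least 1 FPKM over 18 libraries of 9 leukemias were kept. In the libraries compared, 3 counts on 1 kb equal 0.0149 to 0.239 FPKM. Median shifts of the 19 other chromosomes were compared by exact permutation, two-sided. Rounded counts summed per leukemia were tested with edgeR 4.0.16 (TMM, quasi-likelihood, Benjamini-Hochberg over all genes, threshold 0.05), checked on simulated data, with DESeq2 1.42.0 and limma 3.58.1 as alternatives in R 4.3.3. Some items are not reported here. Chromosome 14 got no test, since it chose the leukemias. On chromosome 14 the text names the 8 most abundant genes, the 5 highest and 5 lowest differences at 5 FPKM or more, the 3 nearest the median and the role lists, and elsewhere up to 10 genes each way among those that passed, of which there were 0. Alternatives covered scaling, filters, pseudocount, single libraries and leaving out each leukemia.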

Additional observations from a re-analysis of the deposited data

Results flagged for a closer look

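Among the 6 leukemias with active NOTCH targets, the shift of chromosome 1 in 2M was 0.34 over 640 genes, with the others between -0.11 and 0.04. Its gap to the next leukemia was 0.676 of the whole range, above Dixon's critical value of 0.625. This was 1 flag among 19 chromosomes examined, and chance flags about 1 in 20.

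The leukemia 4638 entered neither group and no test, though its libraries are among those set beside the raised ones in the shares of counts. Its median shift was 0.31 on chromosome 17 (612 genes), where the 9 other leukemias lay between -0.07 and 0.05, and 0.25 on chromosome 2 (946 genes), where they lay between -0.08 and 0.10. Its chromosome 14 shift was -0.27, similar to those of 8633 and JW14.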

How the results depend on the processing

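The chromosome 14 difference of 0.45 stayed between 0.41 and 0.52 under every alternative, with VEH (0.42) or DEX (0.48) libraries alone, and 0.41 to 0.51 when each leukemia was left out. The lowest difference among the 10 sets of neighbouring genes was 0.27 (without 78A) to 0.39 when a leukemia was left out. The gap between the 132 most and 132 least expressed genes, 0.13, became 0.0378 with a pseudocount of 0.1. It ran from 0.0826 to 0.235 (without 20M) when a leukemia was left out, and it was not computed with a filter of 5 FPKM. Other chromosomes that separated the groups numbered 0, but 1 with TMM scaling (chromosome 5), 1 without libraries with ribosomal RNA counts (chromosome 11, added after the data were seen) and 0 to 3 when a leukemia was left out (3 without 20M and 3 without JW81). Genes elsewhere past the threshold numbered 0 in the main test, 103 with DESeq2, 6 with limma voom and 0 to 1 when a leukemia was left out (Ybx3 without 78A, Slc15a2 without JW81); the cause was not tested. The other edgeR alternatives and limma on log values gave 0. Of 54 named chromosome 14 genes, 7 changed sign in 15 of 698 values: Rap2a, Gm21750, Zfp488, Gm21738, Adk, Rps3a2 and Trdv1, which were lower in the raised leukemias on the log2(FPKM + 1) scale at the outset. Differences that moved by over 1 SD were those of Wdhd1 (0.39 with VEH and 0.88 with DEX libraries alone), Gm21738 (-1.17 and 0.51) and Dock9 (1.77 with a pseudocount of 0.1). Of the list medians, T-cell receptor signalling moved (0.20 with VEH and -0.12 with DEX libraries alone, 0.22 without JW81), as did macrophage (-1.10 with VEH), autophagy (-0.19 with DEX), T lineage (0.18 with DEX) and erythroid genes (-5.35 without 2M to -1.22 with limma on log values); the other moves are given beside the lists. No paired analysis was possible because the groups are different leukemias whose labels carry no replicate numbers. Depth ran from 12575231 to 201222288 counts, so that 3 counts on 1 kb equalled 0.0149 to 0.239 FPKM.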

Other observations

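Further groups of genes off chromosome 14 were examined after their values were seen. Replication-dependent histone genes of the Hist clusters numbered 57, and 29 of them were higher in each raised leukemia than in each other one (4.05% of all genes off chromosome 14 were) and 0 were lower in each, with a median log2 fold change of 0.42. None passed edgeR (smallest adjusted p 0.538), 34 had an unadjusted p under 0.05 (1.99% of all genes off chromosome 14 had one and were higher) and 14 passed DESeq2. Their summed FPKM varied within leukemias as well, from 15317 in the VEH to 25460.5 in the DEX library of 20M, from 16228 to 21455 in those of 73M and from 12198 to 17915 in those of JW81, so the libraries of the 2 groups overlapped. These 3 DEX libraries are those with ribosomal RNA counts (21.6, 61.0 and 47.5 CPM), whereas both sums were 15923 and 16323 in 73A, 24002 and 22872 in 78A and 18627 and 22056 in 2M. The part of this in the histone values was not tested. Most histone messages lack a poly(A) tail, and these libraries were selected for poly(A).

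The gamma receptor constant gene Tcrg-C4 was at 41.8, 96.8 and 67.0 FPKM in 20M, 2M and 78A and at 195, 134 and 215 FPKM in 73A, 73M and JW81 (edgeR log2 fold change -1.53, SE 0.30, adjusted p = 0.538; DESeq2 adjusted p = 0.000527). Syk, a kinase of early T-cell and B-cell receptor signalling, was at 3.60, 4.37 and 3.09 FPKM against 8.17, 7.60 and 9.14 (adjusted p = 0.538 with edgeR and 4.46e-06 with DESeq2). In both genes the groups did not overlap. The transcription factor gene Otx2, on chromosome 14, was at 21.3 FPKM in JW81 and at most 0.0220 FPKM in the 5 other leukemias.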
